A study of Mus musculus with 45 samples.

Results

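The genes described here are 7 chemokines, chosen by name with earlier results of these data known. They were looked up by symbol among the genes of the deposited hippocampal expression table: Ccl3, Ccl4, Ccl6, Cxcl16, Cx3cl1, Cxcl12 and Cxcl14. All 7 were present, out of 15897 genes in all. RNA of the hippocampus was sequenced from 45 female mice on a C57Bl/6J background, which fall into 8 groups by genotype and diet. The A+ mice carry a single transgene of chimeric mouse/human APPswe and human PS1dE9 under the mouse PrP promoter, which produces amyloid. The T+ mice carry human Tau P301L under the CaMKII promoter, which acts in excitatory forebrain neurons. AwTw mice are wild-type littermates, and A+T+ mice carry both transgenes. From 7 months of age the mice were given standard diet (STD, 5% fat, 0% cholesterol) or typical Western diet (TWD, 21% fat, 0.15% cholesterol), and all were killed at 13 months. Each group held 6 mice, except A+Tw/STD with 5 and A+T+/STD with 4.

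Chemokines are small secreted or membrane-tethered proteins that steer cells by binding G protein-coupled receptors. In the brain they also carry signals between neurons and glia. Ccl3 and Ccl4 are CC chemokines made by activated microglia and macrophages, and Ccl3 binds Ccr1. Ccl6 is a rodent CC chemokine of myeloid cells. Cxcl16 and Cx3cl1 are the chemokines made as membrane proteins with a stalk that the proteases Adam10 and Adam17 cut. Cxcl16 binds Cxcr6, and Cx3cl1, made mainly by neurons in the brain, binds Cx3cr1 on microglia. Cxcl12 binds Cxcr4 and Ackr3 and guides migrating cells, including the granule cells of the dentate gyrus. Cxcl14 is a chemokine of several neuron types and glia whose receptor is not settled.

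The genes lie on several chromosomes of GRCm38 (GENCODE M21). Ccl3 (chr11:83647844-83649355), Ccl4 (chr11:83662584-83664683) and Ccl6 (chr11:83587882-83593087) sit close together in the CC chemokine cluster, and 13.2 kb separates Ccl3 from Ccl4, which are transcribed from opposite strands. Cxcl16 is at chr11:70453983-70459984, Cx3cl1 at chr8:94772009-94782427, Cxcl12 at chr6:117168535-117181367 and Cxcl14 at chr13:56288643-56296551. Read along the transcript, no 31-base word of the Ccl3, Ccl4, Cxcl16, Cx3cl1 or Cxcl14 transcripts occurs in another gene. Where it uses the strand, the alignment-free counting of the authors could thus separate them. Words of the opposite strand were not compared. In Ccl6 1.28% and in Cxcl12 0.126% of such words were shared. Ccl6 and Cxcl16 each overlap a gene on the opposite strand (E230016K23Rik and Zmynd15). Whether the counting used the strand is not given in the sources used here.

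The promoters of Ccl3 and Ccl6, whose RNA differed most between A+ and Aw mice, and of the neuronal Cx3cl1, whose RNA did not pass that test, are shown for comparison. Each is the 250 bases before the RefSeq start (GRCm38.p6), written 5′ to 3′ along the gene, and RefSeq held such a window for 5 of the 7 genes. Capitals mark GAGGAA, a form that PU.1-type factors of myeloid cells can bind, and TATAA, the letters of a TATA box, on either strand. Both were chosen after the sequences had been read.
Ccl3 (chr11:83649379-83649628, minus strand): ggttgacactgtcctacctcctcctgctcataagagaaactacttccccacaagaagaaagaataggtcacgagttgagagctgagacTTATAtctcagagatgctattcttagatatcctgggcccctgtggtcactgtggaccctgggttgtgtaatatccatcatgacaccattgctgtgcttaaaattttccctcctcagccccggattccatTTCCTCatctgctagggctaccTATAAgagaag
Ccl6 (chr11:83593088-83593337, minus strand): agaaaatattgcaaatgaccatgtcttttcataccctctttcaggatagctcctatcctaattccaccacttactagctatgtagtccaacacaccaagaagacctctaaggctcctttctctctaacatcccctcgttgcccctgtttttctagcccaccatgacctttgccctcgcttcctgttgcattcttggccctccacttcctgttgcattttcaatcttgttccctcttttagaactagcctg
Cx3cl1 (chr8:94771930-94772179, plus strand): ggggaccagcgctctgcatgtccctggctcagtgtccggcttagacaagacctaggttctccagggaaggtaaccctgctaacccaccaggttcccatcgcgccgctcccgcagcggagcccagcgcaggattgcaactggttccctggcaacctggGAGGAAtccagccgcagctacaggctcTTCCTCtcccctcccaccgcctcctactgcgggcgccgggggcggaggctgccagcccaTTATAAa
GAGGAA was found 1 time in the Ccl3 window, 2 times in that of Cx3cl1 and not in that of Ccl6, and 23.3% of all 32851 promoters of this length hold it. Other forms that such factors can bind were not marked, so its absence does not show that the Ccl6 window lacks such sites. TATAA was found in the Ccl3 and Cx3cl1 windows and is in 22.8% of promoters. Of the longer motifs searched on both strands, an NF-kB form (in 4.65% of promoters) and TGANTCA, an AP-1 form (6.75%), were in none of the 5 windows. GAGGAAG (10.6%), which overlaps the first motif, was in that of Cx3cl1 alone. These matches describe letters, and binding was not measured.

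Expression is given on the variance-stabilized scale of the authors. This scale is close to log2 for well-expressed genes and compresses differences of low ones, and it is not corrected for transcript length, so levels are compared between mice and not between genes. Differences are limma estimates on this scale with batch as a covariate, ± SE, and a gene passed the test at a Benjamini-Hochberg adjusted p below 0.05 over all 15897 genes. As a check of the labels, App was 0.90 ± 0.05 and Prnp 1.11 ± 0.05 higher in A+ than in Aw mice, whereas Mapt in T+ against Tw mice gave 0.06 ± 0.05 and did not pass. The tau transgene is human, and reads particular to human tau were not analysed here, so Mapt does not check the T+ label. The markers of excitatory neurons, astrocytes and oligodendrocytes that define hippocampal tissue were all measured. The mean level of 7 choroid plexus markers ran from 5.92 to 10.7 between mice, with all 4 A+T+/STD mice at 9.85 or above. In 4 mice (A+T+/TWD replicate 1, AwTw/TWD replicate 3, A+Tw/TWD replicate 3 and AwTw/STD replicate 4) the median correlation with the other mice was lowest, at 0.941 to 0.955. Batch is a label of 0 (20 mice) or 1 (25 mice), whose meaning the labels do not give. The deposited values have equal batch means, though groups are spread unequally over batches 0 and 1 (A+Tw/STD 1 and 4 mice, A+Tw/TWD 4 and 2). Values of single mice, ranges, gaps and the order of group means can therefore be shifted by batch. The limma estimates hold batch as a covariate.

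The first question is whether the APP/PS1 transgene changed chemokine RNA. Ccl3, Ccl4, Ccl6 and Cxcl16 were higher in the 21 A+ than in the 24 Aw mice, averaged over tau and diet, and Cx3cl1, Cxcl12 and Cxcl14 did not pass the test. Thus 4 of 7 chemokines passed, all higher. Of all genes 3.77% passed (494 higher and 105 lower). The median difference over all genes, whether or not they passed, was −0.02. Because the 7 were chosen with earlier results of these data known, this share and those below do not measure an enrichment. The authors' filter on the mean count also lets in genes that are low in Aw and high in A+ mice.

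Ccl3 showed the largest difference of the 7. It was 1.69 ± 0.08 higher in A+ mice (3.23-fold on this scale, adjusted p = 3.1e-20, limma), and stood 6th of all genes by p. In AwTw/STD the lowest, median and highest mouse were at 4.86, 5.20 and 5.34, and in AwT+/STD at 4.84, 5.04 and 5.22. The 5 A+Tw/STD mice were at 7.00, 7.35, 6.93, 6.14 and 7.17 and the 4 A+T+/STD mice at 6.89, 6.85, 6.34 and 6.95. Every A+ mouse on STD was thus above every Aw mouse on STD. On TWD the lowest, median and highest values were 4.79, 5.19 and 5.45 in AwTw, 4.73, 5.12 and 5.56 in AwT+, 6.34, 6.80 and 7.10 for A+Tw, and 6.39, 6.61 and 7.05 for A+T+. The genotypes did not overlap on TWD either, and the lowest A+ mouse was 0.58 above the highest Aw mouse over both diets.

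Ccl6 gave nearly the same picture. Its difference was 1.59 ± 0.10 (3.01-fold, adjusted p = 4.91e-16, limma). On STD the lowest, median and highest mouse were at 5.47, 5.88 and 6.13 in AwTw and 5.24, 5.89 and 6.40 in AwT+. The A+Tw/STD mice were at 7.90, 7.82, 7.92, 6.82 and 7.55 and the A+T+/STD mice at 7.14, 7.47, 7.14 and 7.35. Of these, replicate 4 of A+Tw/STD, the one mouse of its group in batch 0, was lowest for Ccl6 as it was for Ccl3, yet still above all Aw mice. The part of the batch correction in its low values was not tested. On TWD the values were 5.46, 5.78 and 5.95 in AwTw, 5.24, 5.76 and 6.10 in AwT+, 6.86, 7.34 and 7.80 in the A+Tw group and 6.67, 7.35 and 7.69 for A+T+. All 21 A+ mice lay above all 24 Aw mice, with a gap of 0.27.

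Ccl4, the neighbour of Ccl3 on chromosome 11, was 0.87 ± 0.08 higher in A+ mice (1.82-fold, adjusted p = 1.47e-11, limma). On STD it ran from 4.57 to 5.25 (median 4.79) in AwTw and from 4.26 to 5.01 (median 4.56) in AwT+. The A+Tw/STD mice were at 5.66, 5.76, 5.64, 5.48 and 6.02 and the A+T+/STD mice at 5.67, 5.74, 5.60 and 5.55, all above the Aw mice. On TWD the lowest, median and highest values were 4.42, 4.80 and 5.03 in AwTw, 4.42, 5.03 and 5.35 in AwT+, 5.51, 5.62 and 5.79 for A+Tw, and 5.31, 5.57 and 5.90 for A+T+. Here the genotypes touched, since 1 A+ mouse was 0.03 below the highest AwT+ mouse, and 20 of 21 A+ mice were above all Aw mice. In batch 1, AwTw/TWD replicates 1 and 5, AwT+/TWD replicate 5 and AwT+/STD replicate 4 shared exactly the value 4.41914. A value shared by separate mice is what the floor of the scale gives. Such values may not be measured levels, and the size of the Ccl4 difference is therefore uncertain.

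Cxcl16 differed least of the 4, by 0.65 ± 0.09 (1.56-fold, adjusted p = 1.4e-06, limma), and its values overlapped. Its lowest, median and highest values on STD were 5.42, 5.94 and 6.29 in AwTw and 5.57, 5.85 and 6.38 in AwT+. For A+Tw/STD the 5 mice were at 6.27, 6.78, 6.48, 6.34 and 6.53, and the A+T+/STD mice at 6.71, 7.08, 6.45 and 6.81. The A+T+/STD mice were thus all above the Aw mice on STD, and 2 of the A+Tw/STD mice were not. On TWD the values were 5.69, 6.36 and 6.61 in AwTw, 5.68, 6.15 and 6.61 in AwT+, 6.65, 6.80 and 7.22 for A+Tw, and 6.28, 6.70 and 7.04 for A+T+. Over both diets 14 of 21 A+ mice exceeded every Aw mouse.

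**Figure D1:**
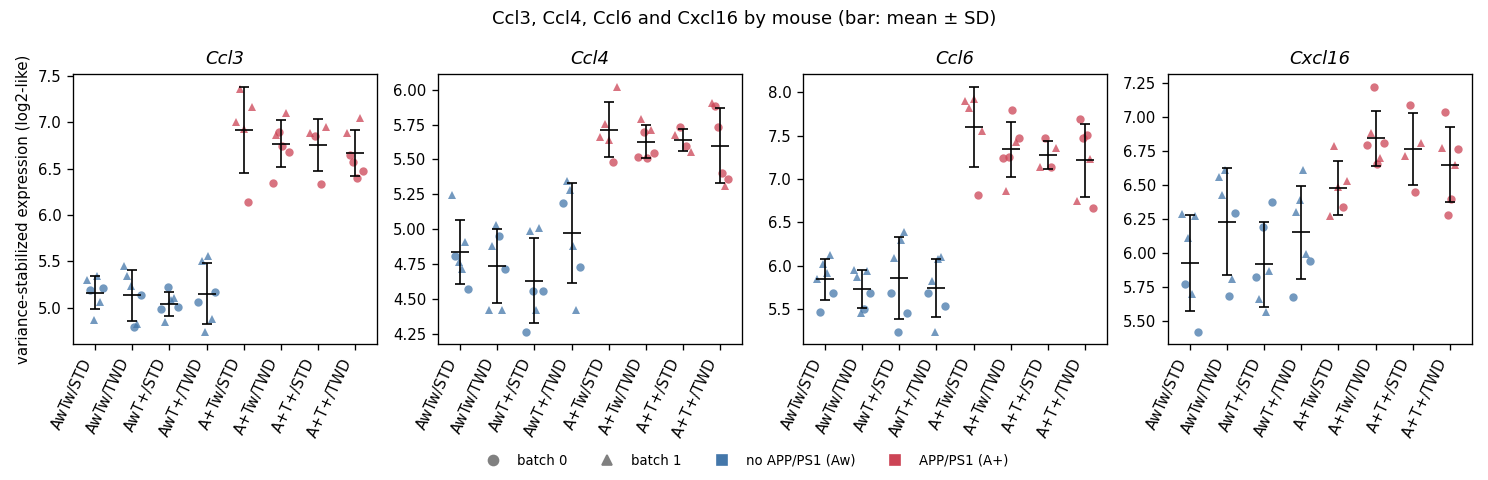
Each point is 1 mouse (circles batch 0, triangles batch 1), with the variance-stabilized expression of Ccl3, Ccl4, Ccl6 and Cxcl16 on the vertical axes and the 8 groups along the horizontal axes, Aw in blue and A+ in red; bars are the mean ± SD of the 4 to 6 mice. For Ccl3 and Ccl6 the red points lie above all blue points, for Ccl4 20 of 21 do and for Cxcl16 14 of 21.

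The difference was looked for in each tau and diet background. In A+Tw against AwTw on STD, 3 of the 7 passed (0.925% of all genes): Ccl3 by 1.73 ± 0.16, Ccl6 by 1.73 ± 0.20 and Ccl4 by 0.86 ± 0.15. On TWD the same comparison again gave these 3 (0.824% of genes), by 1.72 ± 0.15, 1.67 ± 0.19 and 0.93 ± 0.15. In A+T+ against AwT+, 4 passed on STD (0.95% of genes), with 1.72 ± 0.17 for Ccl3, 1.41 ± 0.21 for Ccl6, 1.01 ± 0.16 for Ccl4 and 0.85 ± 0.19 for Cxcl16. On TWD 3 passed (0.761% of genes), with 1.60 ± 0.15, 1.54 ± 0.19 and 0.66 ± 0.15 for Ccl3, Ccl6 and Ccl4. These 4 pairs of groups share no mice. Against AwTw, A+T+ mice gave 4 on STD (1.32% of genes) and 3 on TWD (0.73%), with AwTw mice shared with the first pairs.

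Among single pairs of groups Cxcl16 passed for A+T+ on STD alone, with adjusted p = 0.00915 against AwTw and 0.0114 against AwT+ (limma). In A+Tw it was 0.54 ± 0.18 higher on STD (adjusted p = 0.311, limma) and 0.66 ± 0.17 higher on TWD (adjusted p = 0.0605, limma), so the estimates had the same sign where it did not pass. When the main axis of variation among mice of the same group (the first component of the fit's residuals, with equal means in all groups) was added as a covariate, both passed (adjusted p = 0.0442 and 0.0265, limma). That component was computed from the same residuals it removes, so such p-values are too small. Without A+T+/STD replicate 2, at 7.08 the highest mouse of its group, Cxcl16 differed by 0.73 from AwTw and 0.71 from AwT+ and did not pass. The A+T+/STD mice also had high choroid plexus markers (9.85 to 10.6, against 6.50 to 10.2 in AwTw/STD) and meningeal fibroblast markers (8.72 to 9.41 against 7.62 to 9.26). With the choroid plexus marker mean as a covariate, an alternative chosen after seeing the data, Cxcl16 in A+T+/STD was 0.63 higher than in AwTw (adjusted p = 0.114, limma) and 0.72 higher than in AwT+ (adjusted p = 0.0217, limma). Averaged over tau and diet it was 0.54 higher with that covariate (adjusted p = 1.48e-05, limma).

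**Figure D2:**
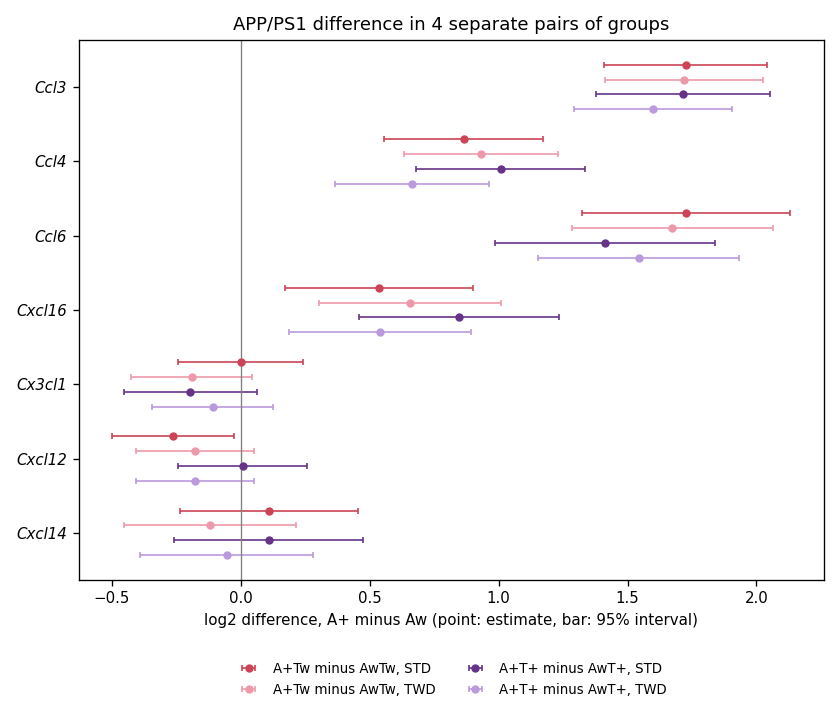
Points are the estimated log2 differences of A+ minus Aw mice for each chemokine in the 4 pairs of groups that share no mice, with 95% intervals as bars; the vertical line is no difference. The Ccl3 estimates lie between 1.60 and 1.73, those of Ccl6 between 1.41 and 1.73, and the intervals of Cx3cl1 and Cxcl14 all include 0. For Cxcl12 the interval of A+Tw minus AwTw on STD excludes 0 (−0.50 to −0.03), and its other intervals include 0.

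Whether diet or tau altered these differences was tested as an interaction. The A+ difference on TWD minus that on STD was −0.06 ± 0.16 for Ccl3, −0.14 ± 0.16 for Ccl4, 0.04 ± 0.20 for Ccl6 and −0.09 ± 0.18 for Cxcl16. None of the 7 passed, and 0% of all genes did (412 genes had an unadjusted p below 0.05). The 95% intervals of these 4 differences together span −0.46 to 0.45, so changes of that size are not excluded. The A+ difference in T+ minus that in Tw was likewise between −0.22 (Ccl6) and 0.10 (Cxcl16) for the 4, and again none of the 7 and 0% of genes passed (232 at an unadjusted p below 0.05).

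The batches could also be taken apart. In batch 0 alone A+ mice were higher by 1.39 for Ccl3, 0.84 for Ccl4, 1.66 for Ccl6 and 0.77 for Cxcl16, and in batch 1 alone by 1.86, 0.84, 1.33 and 0.58. All 4 passed in each batch. Leaving out any 1 of the 45 mice also left all 4 past the threshold in the averaged comparison.

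The order of the 8 group means restates these values for the 3 CC chemokines and is not a further test. For Ccl3, Ccl4 and Ccl6 the 4 A+ groups came first, and the step from the lowest A+ to the highest Aw group (1.51, 0.63 and 1.35) was the only one larger than the pooled SD within groups (0.28, 0.25 and 0.35). No step between neighbours within the A+ or within the Aw groups was. For Cxcl16 the 4 A+ groups also came first, but no step between neighbours exceeded its pooled SD of 0.30. The share of all genes with such an order, or with no overlap between A+ and Aw mice, was not computed.

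Of 12 microglial markers measured in the same mice, 10 passed and were higher in A+ mice, with a median difference of 1.02, among them Tyrobp (1.72 ± 0.09), the signalling adaptor of Trem2, and C1qa (1.19 ± 0.10), a complement subunit. P2ry12 and Tmem119, markers of resting microglia, gave 0.06 ± 0.14 and 0.24 ± 0.08 and did not pass. The mean of the 12 ran from 8.95 to 9.74 in Aw mice and from 9.76 to 10.6 in A+ mice. In tissue RNA, more cells of a type and more RNA per cell cannot be told apart.

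Set against that mean, the chemokines were not alike. The microglial mean was 0.90 ± 0.05 higher in A+ mice. Relative to it Ccl3 was still 0.79 higher (95% interval 0.64 to 0.95) and Ccl6 0.69 higher (0.45 to 0.94). Ccl4 was at −0.03 (−0.20 to 0.14) and Cxcl16 at −0.25 (−0.46 to −0.05). This measure was chosen after the values had been seen and carries no test. The scale compresses the lower-expressed chemokines more than the markers, and some Aw mice shared a single low Ccl4 value.

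Other marker lists gave fewer calls. Of 8 border macrophage markers, 5 were measured and none passed (median 0.12). Of 8 T cell markers, Lck and Trac were measured and did not pass, and none of the 6 monocyte and neutrophil markers was measured. Measured here means present after the authors kept genes with a mean count above 10. A marker that was not measured may thus have had low counts. Among the astrocyte markers 1 of 7 passed, the reactive marker Gfap (1.44 ± 0.06). The 7 choroid plexus markers had a median difference of 0.94 in A+ mice, and none passed.

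Cx3cl1, the neuronal ligand of microglial Cx3cr1, was −0.12 ± 0.06 in A+ against Aw mice (95% interval −0.25 to −0.002, adjusted p = 0.32, limma). On STD the lowest, median and highest values were 12.93, 13.13 and 13.65 in AwTw and 12.99, 13.22 and 13.33 in AwT+, and the A+T+/STD mice were at 13.09, 13.04, 12.98 and 12.89. The A+Tw/STD mice, at 12.90, 13.36, 12.91, 13.17 and 13.46, spanned nearly the whole range, so the genotypes overlapped. With the first residual component as a covariate, the difference was again −0.12 and passed (adjusted p = 0.0185, limma), with the same limit on its p-value. With expression projected on that component as a covariate, chosen after seeing the data, it was −0.19 and passed (adjusted p = 0.00107, limma). This projection itself differs between groups, with a mean of 0.21 SD in A+ and −0.19 SD in Aw mice. Cx3cl1 then also passed in A+T+/STD against AwTw (−0.33) and AwT+ (−0.30). With the component it passed in A+T+ against AwTw on TWD (−0.26). A+Tw against AwTw passed with neither covariate.

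Cxcl12, the ligand of Cxcr4 and Ackr3, was −0.15 ± 0.06 in A+ mice (95% interval −0.27 to −0.03, adjusted p = 0.17, limma). It ran from 9.39 to 9.85 (median 9.74) in AwTw/STD and from 9.17 to 9.67 (median 9.52) in AwT+/STD. In A+Tw/STD they were at 9.63, 9.03, 9.30, 9.49 and 9.57 and the A+T+/STD mice at 9.32, 9.52, 9.44 and 9.55. On TWD the lowest, median and highest values were 9.49, 9.70 and 9.79 in AwTw, 9.29, 9.61 and 9.94 in AwT+, 9.40, 9.51 and 9.59 for A+Tw, and 8.98, 9.51 and 9.65 for A+T+. A+ and Aw mice overlapped on both diets, and the lowest of all, at 8.98, was an A+T+/TWD mouse.

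Cxcl14 did not separate the genotypes, at 0.01 ± 0.09 (95% interval −0.16 to 0.18, adjusted p = 0.965, limma). Its lowest, median and highest values on STD were 10.15, 10.31 and 10.79 in AwTw and 10.25, 10.44 and 10.51 in AwT+. In A+Tw/STD they were at 10.15, 11.09, 10.06, 10.40 and 10.97 and the A+T+/STD mice at 10.70, 10.72, 10.57 and 10.10. The A+Tw/STD group thus held both the lowest and the highest mouse on STD.

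**Figure D3:**
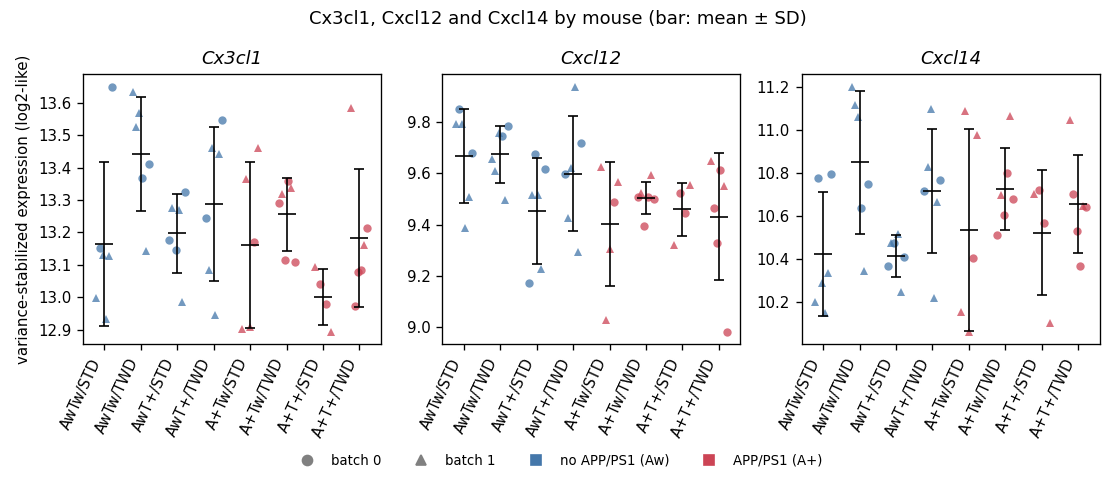
Variance-stabilized expression of Cx3cl1, Cxcl12 and Cxcl14 in each mouse (circles batch 0, triangles batch 1; Aw blue, A+ red) by group, with bars for the mean ± SD. The groups overlap for all 3 genes, and AwTw/TWD has the highest mean of each, at 13.44, 9.67 and 10.85.

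The Tau P301L transgene alone was examined next. None of the 7 passed in AwT+ against AwTw on STD or TWD, where 0% of all genes passed on each diet (380 and 484 at an unadjusted p below 0.05, none of them a chemokine of the 7). The estimates for Ccl3 were −0.08 ± 0.15 on STD and 0.02 ± 0.15 on TWD. In A+T+ against A+Tw none of the 7 passed, with 0.00629% of genes on STD and 0% on TWD (617 and 208 genes at an unadjusted p below 0.05). Averaged over APP/PS1 and diet, T+ against Tw gave none of the 7 (0.0189% of genes), and the 7 estimates lay between −0.09 (Cx3cl1) and 0.02 (Cxcl16).

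The diet comparison asks whether TWD changed these RNAs irrespective of genotype. Cxcl14 was 0.27 ± 0.08 higher (1.21-fold, adjusted p = 0.0194, limma) and Cx3cl1 0.16 ± 0.06 higher (1.12-fold, adjusted p = 0.0382, limma) in the 24 TWD than in the 21 STD mice. These 2 of 7 stand beside 29.4% of all genes that passed, so the share is near that of genes at large. Cxcl16 was 0.22 ± 0.09 higher and did not pass (adjusted p = 0.0577, limma). Ccl3 (−0.01 ± 0.08), Ccl4 (0.05 ± 0.08), Ccl6 (−0.12 ± 0.10) and Cxcl12 (0.06 ± 0.06) did not pass. Cell type markers moved with diet too. Of 12 microglial markers 7 passed as higher and 1 as lower (median 0.25), and of 8 interneuron markers 4 as higher and 2 as lower (median 0.13). Of 6 excitatory neuron markers 2 passed, both higher (median −0.02). The part of these cell types in the Cxcl14 and Cx3cl1 differences was not tested.

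The mice of the 2 diets overlapped for both genes that passed. Cxcl14 ran from 10.06 to 11.09 (median 10.41) on STD and from 10.22 to 11.20 (median 10.70) on TWD. Cx3cl1 ran from 12.89 to 13.65 (median 13.13) on STD and from 12.95 to 13.63 (median 13.31) on TWD. For each gene the TWD group had the higher mean in all 4 genotypes. By genotype, the lowest, median and highest Cxcl14 values on TWD were 10.34, 10.90 and 11.20 in AwTw, 10.22, 10.74 and 11.10 in AwT+, 10.51, 10.69 and 11.06 for A+Tw, and 10.37, 10.64 and 11.05 for A+T+. Those of Cx3cl1 were 13.14, 13.47 and 13.63 in AwTw, 12.95, 13.34 and 13.55 in AwT+, 13.11, 13.31 and 13.36 for A+Tw, and 12.97, 13.12 and 13.58 for A+T+. The medians of both genes were highest in AwTw on TWD, and each TWD group overlapped its STD group.

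By batch the diet differences were unequal. In the 25 mice of batch 1, Cxcl14 was 0.45 higher (adjusted p = 0.0181, limma) and Cx3cl1 0.26 higher (adjusted p = 0.0274, limma) on TWD, while in the 20 mice of batch 0 they were 0.09 and 0.08 higher and no gene of the table passed. In batch 1 alone Cxcl16 was also higher (0.31, adjusted p = 0.0262, limma) and Ccl6 lower (−0.37, adjusted p = 0.0176, limma), whereas Ccl6 was 0.17 higher in batch 0 and did not pass. The difference between the batches was not tested. Without the 4 least correlated mice, an alternative chosen after seeing the data, Cxcl14 was 0.23 higher (adjusted p = 0.111, limma) and Cx3cl1 0.12 higher (adjusted p = 0.156, limma), and no gene passed.

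Within single genotypes the diet differences of the 7 did not pass. In AwTw, Cxcl14 was 0.43 ± 0.16 higher on TWD (adjusted p = 0.0607, limma). Cx3cl1 was 0.28 ± 0.12 higher (adjusted p = 0.0745, limma), and 9.35% of all genes passed in this genotype. In AwT+, A+Tw and A+T+ none of the 7 passed and 0% of genes did, with 1183, 705 and 409 genes at an unadjusted p below 0.05. Ccl4 in AwT+ (0.32 ± 0.15) and Cxcl16 in A+Tw (0.43 ± 0.18) were the chemokines among them.

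**Figure D4:**
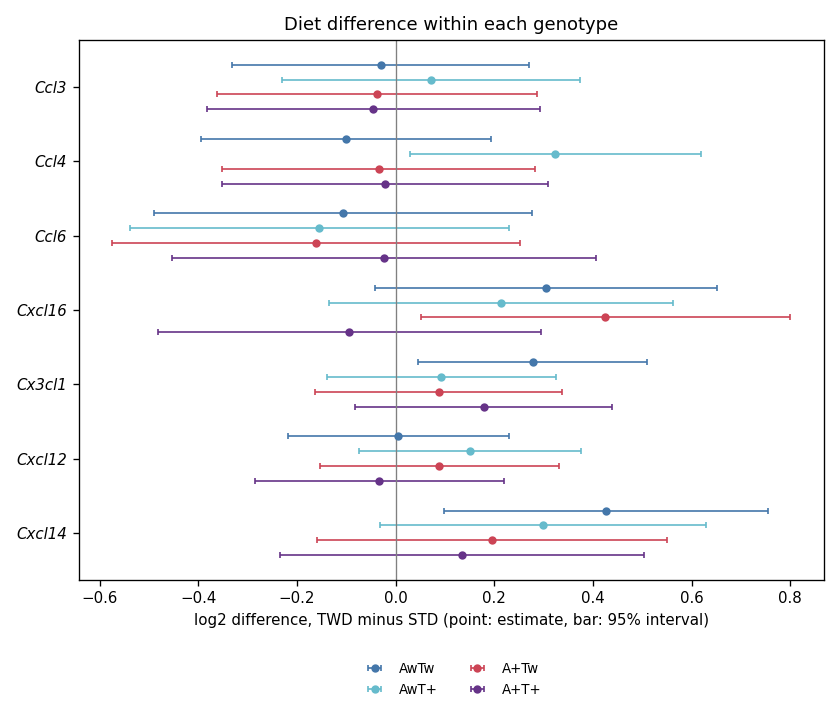
Estimated log2 differences of TWD minus STD mice within each genotype (points) with 95% intervals (bars); the vertical line is no difference. Cxcl14 and Cx3cl1 estimates are above 0 in all 4 genotypes, from 0.13 to 0.43 and from 0.09 to 0.28, and most intervals include 0.

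How the chemokines varied between mice of one group was described with the residuals of the 8-group fit, over 45 mice that share batch correction and tissue. Cx3cl1 and Cxcl14 moved together (Pearson r = 0.78), and both followed the first principal component of the residuals (r = 0.79 and 0.87), which held 41.3% of the residual variance of all genes. With that component as a covariate the diet differences of Cxcl14 and Cx3cl1 were again 0.27 and 0.16 and both passed. The expression values of the mice projected on that component carry group differences as well, with a mean of 0.39 SD on TWD and −0.45 SD on STD. With this projection as a covariate, an alternative chosen after seeing the data, the diet difference of Cxcl14 was 0.05 and that of Cx3cl1 0.03, and no gene of the table passed. The projection takes up part of the diet difference by construction. Cx3cl1 followed the excitatory neuron (0.73), interneuron (0.76) and microglial (0.68) marker means, and Cxcl14 the interneuron (0.77) and microglial (0.83) means.

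Cxcl16 followed another set of markers, with r = 0.65 to the meningeal fibroblast, 0.56 to the border macrophage and 0.51 each to the mural and choroid plexus means, and 0.11 to the microglial mean. Cxcl12 was closest to the endothelial mean (0.46). Ccl3 had r = 0.39 each to the microglial and oligodendrocyte means. Ccl4 had 0.22 to the microglial mean, and its highest was 0.51, to the oligodendrocyte mean, with −0.48 to the astrocyte mean. Ccl6 had −0.07 to the microglial mean. Among themselves Ccl3, Ccl4 and Ccl6 had residual r of −0.10 to 0.12.

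**Figure D5:**
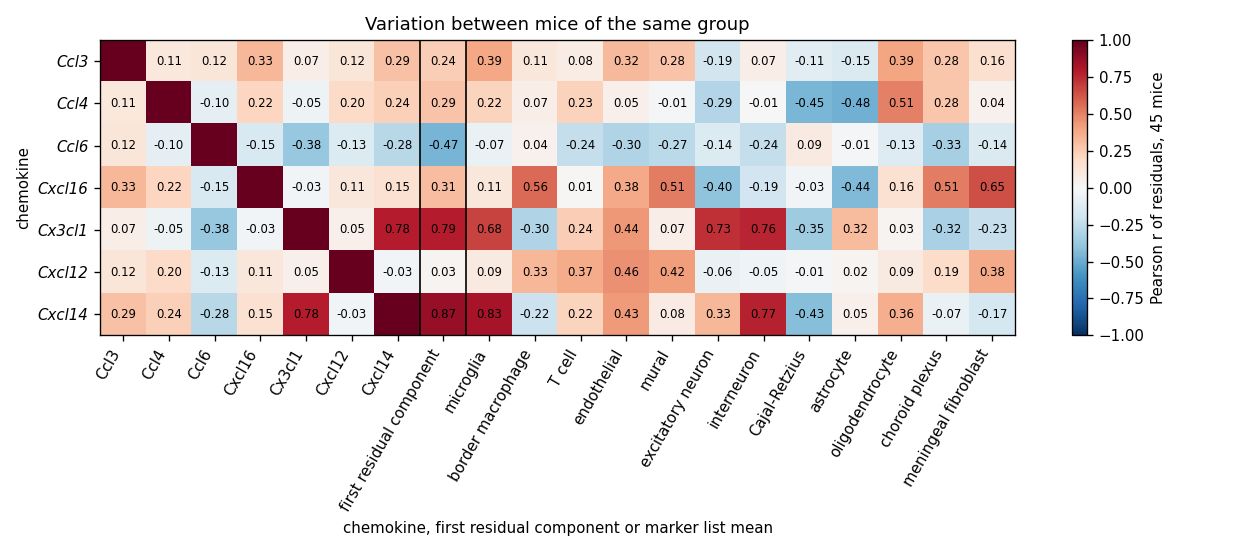
Pearson r of residuals over 45 mice between each chemokine (rows) and the other chemokines, the first residual component and 12 marker list means (columns), with red for positive and blue for negative values. Cx3cl1 and Cxcl14 share r = 0.78 and both follow the first component, while Cxcl16 has its highest r, 0.65, with the meningeal fibroblast list, and Ccl3, Ccl4 and Ccl6 lie between −0.10 and 0.12 with each other.

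The genes with the most similar residuals, up to 3 for each chemokine, were named by the same measure. They were picked as the highest out of the 15695 genes with a symbol. How high such an r comes by chance was not tested. For Ccl3 the first was Fcer1g (r = 0.65), the signalling chain of Fc receptors in myeloid cells, followed by Ubxn10 (0.62) and Ccpg1os (0.62). Ccl4 was most like Ninj2 (0.69), Tpd52l1 (0.66) and Lrrc36 (0.61), and Ccl6 most like 1700056N10Rik (0.76), Chn1 (0.74) and Prss35 (0.74). Cxcl16 was most like Bgn (0.77), a proteoglycan of the matrix, Mrc2 (0.77), a collagen receptor, and Gstm2 (0.76).

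Cx3cl1 had far closer partners: Eef1a2 (0.96), the elongation factor form of neurons and muscle, Dnm1 (0.95), the dynamin of synaptic vesicle recycling, and Vps18 (0.95). Among the genes most like Cxcl14 were Ly6e (0.93) and AW047730 (0.93). Cxcl12 had none above 0.57, the value for Gm28048, whose rank correlation was 0.33.

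Other parts of the pathway were read from lists of chemokines, receptors, proteases and signalling genes. These lists too were chosen with earlier results of these data known, so their shares do not measure an enrichment. Of 29 further chemokines, 6 were among the genes that the authors kept by mean count. Of these, 1 passed in A+ against Aw mice: Cxcl10, an interferon-induced ligand of Cxcr3, was 0.53 ± 0.11 higher (adjusted p = 5.8e-04, limma). The median of the 6 was 0.10, against −0.02 for all genes. With TWD, 2 of the 6 passed, Ccl19 (0.44 ± 0.11) and Ccl27a (0.39 ± 0.09), both higher, a share near the 29.4% of all genes.

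Of 24 receptors, 9 were measured and 2 passed in A+ mice, beside 3.77% of all genes. Cx3cr1, the receptor of Cx3cl1, was 0.59 ± 0.06 higher, while its ligand did not pass. Cmklr1, the chemerin receptor of myeloid cells, was 0.53 ± 0.08 higher. Both differences were smaller than that of the microglial marker mean (0.90), and the receptors were not analysed relative to it. The Cxcl12 receptors Cxcr4 (0.20 ± 0.07, adjusted p = 0.12, limma) and Ackr3 (0.003 ± 0.06) did not pass. Ccr1 and Cxcr6 were not analysed here. No receptor passed for diet.

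Of 8 proteases that can cut chemokines, Ctss, a lysosomal protease that microglia release, was 1.13 ± 0.05 higher in A+ mice, and the others did not pass, Adam10 (−0.15 ± 0.13) and Adam17 (0.14 ± 0.08) included. In that comparison 3.77% of all genes passed. Ctss is also on the microglial marker list above, so its call is not separate from those of the markers. With TWD 2 of the 8 passed, a share near the 29.4% of all genes, with −0.42 ± 0.13 for Adam10 and −0.26 ± 0.08 for Adam17. Like all diet results, these did not pass in batch 0 alone.

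Downstream of the receptors, 28 of 30 signalling genes were measured and 9 passed in A+ mice, all higher, beside 3.77% of all genes, with a median of 0.04 over the 28. They included the leukocyte guanine nucleotide exchange factors Dock2 (0.61 ± 0.07) and Vav1 (0.60 ± 0.07), the GTPase Rac2 (0.67 ± 0.13), the oxidase subunit Ncf1 (0.61 ± 0.07), the kinase Lyn (0.29 ± 0.06), the PI3K-gamma subunits Pik3cg (0.38 ± 0.09) and Pik3r5 (0.33 ± 0.05) and Rgs10 (0.29 ± 0.07), a brake on G protein signals. The named differences were smaller than that of the microglial marker mean (0.90), and these genes were not analysed relative to it. The broadly expressed G proteins, arrestins and receptor kinases of the list, such as Gnb1 (−0.11 ± 0.09) and Arrb2 (0.06 ± 0.09), did not pass. With TWD 6 of the 28 passed as higher and 4 as lower, again near the share of all genes.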

How the data were processed

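Hippocampal poly(A) RNA of 45 female mice was sequenced as single reads. The authors trimmed reads with Trimmomatic 0.38, removed ribosomal and mitochondrial reads with Bowtie 2 2.2.3, quantified transcripts with kallisto 0.44.0, summed them per gene with tximport and kept genes with a mean count above 10. The authors then applied the variance-stabilizing transformation of DESeq2 1.22.2 and removed batch with limma 3.38.3, so the deposited values are on a log2-like scale. Counts and depth are not known from the table, and precision rests on the spread between mice. Because batch was removed before deposit, both batches have equal means for every gene.

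Groups came from the sample labels. All 15897 genes were fitted with limma 3.58.1 (R 4.3.3, empirical Bayes with a mean trend) on the 8 groups with batch as a covariate. The diet comparison irrespective of genotype came from a model with additive terms for diet, genotype and batch. The two-sided p-values were adjusted by Benjamini-Hochberg across the whole table, and an adjusted p below 0.05 passed. The fit was tested on simulated data. The 157 genes that repeat another gene's values were kept, or counted once as an alternative. Other alternatives left out the batch covariate, fitted each batch alone, or used quantile or median scaling, a filter on low values, no mean trend, only the groups compared, or the label prefix or first residual component as a covariate, and each mouse was left out in turn. A choroid plexus covariate, a covariate of expression projected on that component and leaving out 4 mice were added after seeing the data. The 7 genes were all named. Other genes were named from the pathway and marker lists, from the 3 most similar residual profiles per gene, or as a check of the labels, and some genes that these rules name are not reported here. The 7 genes and the lists were chosen with earlier results of these data known. Python 3.11.15, numpy 2.4.6, pandas 2.3.3 and matplotlib 3.10.9 were used for descriptions and plots. Promoters are from RefSeq (GRCm38.p6) and gene positions from GENCODE M21. Protein sequences were not used here.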

Additional observations from a re-analysis of the deposited data

Results flagged for a closer look

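Of 56 sets of values (7 genes in 8 groups), 2 held a mouse far from the rest of its group by Dixon's test at 95%, which chance gives for about 1 in 20. Ccl3 in A+T+/STD replicate 3 was at 6.34, with the other 3 mice between 6.85 and 6.95. Without this mouse Ccl3 in A+T+/STD was 1.73 above AwTw and 1.82 above AwT+ and passed in both. Cx3cl1 in AwTw/STD replicate 6 was at 13.65, with the other 5 mice between 12.93 and 13.15. Without it the Cx3cl1 difference of TWD minus STD in AwTw was 0.38 (adjusted p = 0.0183, limma) instead of 0.28, and passed. Both mice are of batch 0, and the part of batch in these values was not tested. In no comparison did the APP/PS1 difference of a chemokine pass a test of its dependence on diet or tau.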

How the results depend on the processing

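Of 26 pairs of chemokine and comparison that passed, none changed sign under the 14 alternatives or with any of 45 mice left out. Of 107 that did not pass, 96 passed under no alternative. Ccl3, Ccl4, Ccl6 and Cxcl16 passed in the averaged A+ comparison wherever they were tested. The filter on values below the 25th percentile removed these 4 genes, so 0 of the remaining 3 passed in the 7 A+ comparisons. In batch 0 alone 0 passed for A+Tw against AwTw on STD, where A+Tw/STD has 1 mouse that is assumed to vary like the others, and 2 for A+T+ against AwTw on STD. In batch 1 alone 2 passed for that comparison and 1 for A+T+ against AwT+ on STD, 2 for diet in AwTw and 4 for diet irrespective of genotype. The latter gave 0 in batch 0 alone, with expression projected on the first residual component as a covariate and without the 4 least correlated mice. With the residual component itself, diet gave 2 in AwTw and 1 in AwT+; it is computed from the residuals it removes, which lowers the error of every test. With 1 mouse left out, the counts were 3 to 4 for A+Tw against AwTw on TWD, 3 to 4 for A+T+ against AwTw and against AwT+ on STD, 2 to 3 for A+T+ against AwT+ on TWD, 0 to 2 for diet in AwTw and 1 to 3 for diet irrespective of genotype. The causes were not tested.

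Ccl4 in A+T+ against AwT+ on TWD did not pass without A+T+/TWD replicate 1 (0.61), AwT+/TWD replicate 5 (0.55) or AwT+/TWD replicate 6 (0.62), nor without the 4 least correlated mice (adjusted p = 0.0702, limma), in the groups compared alone (0.561) or in batch 0 (0.405) or batch 1 (0.676) alone. In A+T+ against AwTw on TWD it did not pass in the groups compared alone (adjusted p = 0.0817, limma). Of the single pairs of groups within 1 batch, Ccl4 passed in A+T+ against AwT+ on STD in batch 0 alone. Cx3cl1 for diet irrespective of genotype passed in 30 of the 45 fits without 1 mouse (0.14 to 0.19) and Cxcl14 in all 45 (0.25 to 0.30). Under quantile scaling Cx3cl1 was 0.06 higher and did not pass, while Cxcl16 was 0.27 higher and did.

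Over all genes, the averaged A+ comparison gave 599 genes, 184 and 288 in batch 0 and batch 1 alone, 346 with the filter, 2814 with the residual component and 1028 with the projection. A+Tw against AwTw gave 147 on STD (5, 85, 82 with the filter, 66 in the groups compared alone, 1313 with the component) and 131 on TWD (64, 24, 71, 68, 210 with the component, 204 with the projection). A+T+ against AwTw gave 210 on STD (41, 34, 135, 122 with the choroid plexus covariate, 3179 with the component) and 116 on TWD (33, 26, 66, 50, 797 with the component, 291 with the projection). A+T+ against AwT+ gave 151 on STD (60, 31, 94, 284, 1135 with the component, 242 with the projection) and 121 on TWD (46, 34, 72, 55, 237 with the component). Diet in AwTw gave 1487, 2490 without the batch covariate, 3982 in batch 1 alone, 2853 with the filter, 3247 with the choroid plexus covariate, 7036 with the component, 1 in the groups compared alone and 0 in batch 0 alone, with quantile or median scaling, without the trend, with the label prefix or projection as a covariate and without the 4 least correlated mice. With 1 mouse left out it gave 0 to 6072. Without A+T+/STD replicate 2, A+T+ on STD gave 108 against AwTw and 93 against AwT+. Diet irrespective of genotype gave 4678, as few as 2768 without AwTw/TWD replicate 3, 7300 with the component, and 0 in batch 0 alone, with the projection and without those 4 mice. T+ against Tw gave 3 (0 in batch 0, 1 in batch 1, 5 with the component, projection or choroid plexus covariate) and A+T+ against A+Tw on STD 1 (0 in each batch alone and with the filter, 3 with the component). With the component, counts of 0 became 24 and 656 for AwT+ against AwTw on STD and TWD, 1842 and 1614 for diet in AwT+ and A+Tw, and 300 for the dependence of the A+ difference on diet.

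No paired analysis was possible because the labels give no replicate numbers that tie mice across groups.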
